A study of Hydractinia symbiolongicarpus with 45 samples.

Results

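The gene models HyS0968.2 and HyS0005.469 of the hydrozoan cnidarian Hydractinia symbiolongicarpus are annotated by the study, on sequence similarity to vertebrate proteins, as Sox2-like and Sox4-like. They were picked by identifier and are 2 of the 22022 gene models with counts. Both names rest on the study's annotation, since 0 identifiers were found in the reference table used here. The study displays both genes among factors whose level in the egg is high and, by its own values, more than 5-fold above that of some other stage. Their egg level and their decline in larvae are therefore given as a description, without a test.

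Sox proteins are transcription factors that bind DNA through a high-mobility-group (HMG) domain, which sits in the minor groove and bends the helix. In vertebrates, Sox2 works with POU-domain factors to hold stem cells in a pluripotent state and acts early in the nervous system, and Sox4 acts in progenitor cells of many tissues. In zebrafish and Xenopus, close relatives of Sox2 are laid down in the egg as mRNA and take part in the first transcription of the embryonic genome, the step at which control of development passes from maternal to embryonic gene products.

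RNA was sequenced from unfertilized eggs, whole embryos and larvae of wild-type animals, whose gametes came from a pair of breeder colonies. The 25 poly(A)+ libraries were made from RNA selected through its poly(A) tail, and the 18 rRNA-depleted libraries from all RNA left after removal of ribosomal RNA, tailed or not. Replicates carry clutch letters, A to G in the labels, and each library is a pool of many embryos, so the p-values measure the spread between these pools. The eggs were of clutches A, C and D (3 libraries of each type), embryos at 0.5 and 1 hpf (hours post-fertilization) from A, at 2, 3 and 4 hpf from A and C, and at 5 and 6 hpf from B. Embryos at 7 hpf came from B and D for poly(A)+ and from B alone for rRNA-depleted RNA, and larvae at 24, 48 and 72 hpf came from E and F, as poly(A)+ libraries only. Treated embryos of clutches D and G were kept from shortly after fertilization in 20 µM Triptolide, an inhibitor of RNA polymerase II transcription, in 0.5% DMSO, or in 0.5% DMSO alone, and were collected at 7 hpf. Clutches B, E, F and G have no egg library, so for the stages taken from them alone, stage and clutch cannot be told apart in a comparison with the egg. A further 2 pilot libraries at 1 hpf carry no clutch letter and are left to the closing section. Total counts ranged from 3107733 to 32015981 in poly(A)+ libraries and from 3503063 to 20464403 in rRNA-depleted libraries, and the untreated libraries of clutch B were among the shallowest. Stage and treatment labels were checked with the forkhead-domain gene HyS0062.47, which is given by the study as activated in the embryo. HyS0062.47 had a mean of 0.519 TPM in Triptolide, 512 TPM in DMSO, 492 TPM at 7 hpf and 0.390 TPM in the egg (poly(A)+), the order that the labels call for. The study found this gene in these same libraries, so the order is no independent evidence for the labels. The annotation at hand gives no coordinates for either Sox gene. The lengths in the count table, 1020 bases for HyS0968.2 and 999 bases for HyS0005.469, are coding lengths.

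The Sox2-like gene was present in the egg, stayed between 109.7 and 207 TPM in every untreated library with a clutch letter through 5 hpf and stood at 445 to 657 TPM at 6 and 7 hpf. These levels are in TPM (counts divided by coding length and scaled to the same total in each library). In poly(A)+ libraries, HyS0968.2 had 129, 125 and 137 TPM in eggs of clutches A, C and D, 109.7 TPM at 0.5 hpf and 155 TPM at 1 hpf. It had 183 and 147 TPM (clutches A and C) at 2 hpf, 194 and 169.7 TPM at 3 hpf, and 203 and 181 TPM at 4 hpf. The clutch B libraries had 195 TPM at 5 hpf and 504 TPM at 6 hpf, and the 7 hpf libraries had 657 TPM in clutch B and 653 TPM in clutch D. These poly(A)+ libraries from the egg to 5 hpf thus lay between 109.7 and 203 TPM, and the 3 untreated libraries at 6 and 7 hpf lay apart from them. As these are whole embryos, more cells with the transcript and more transcript per cell cannot be told apart.

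In rRNA-depleted libraries, the Sox2-like gene had 169.6, 189.9 and 207 TPM in eggs of clutches A, C and D, 185 TPM at 0.5 hpf and 163 TPM at 1 hpf. It had 205 and 194 TPM (clutches A and C) at 2 hpf, 152 and 197 TPM at 3 hpf, and 113 and 154 TPM at 4 hpf. In clutch B it had 197 TPM at 5 hpf, 445 TPM at 6 hpf and 615 TPM at 7 hpf. Again the libraries from 6 hpf on stood above every earlier one. TPM in this library type are shares of a pool that changes. The histone sequences of scaffold HyS0385 are taken here as its models and all models with counts identical to theirs. They held 0.491 to 0.566% of TPM in eggs and 11.2 to 20.6% at 4 to 7 hpf without Triptolide. The study puts all histone mRNA at larger shares in the egg and at 4 hpf, so leaving these out removes only a part of it. With those sequences left out of the denominator, the mean of HyS0968.2 at 4 hpf was 158 ± 23.3 TPM (SD, n = 2), against 190.0 ± 19.1 TPM in the egg (SD, n = 3), and its level at 7 hpf was 760.5 TPM.

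**Figure D1:**
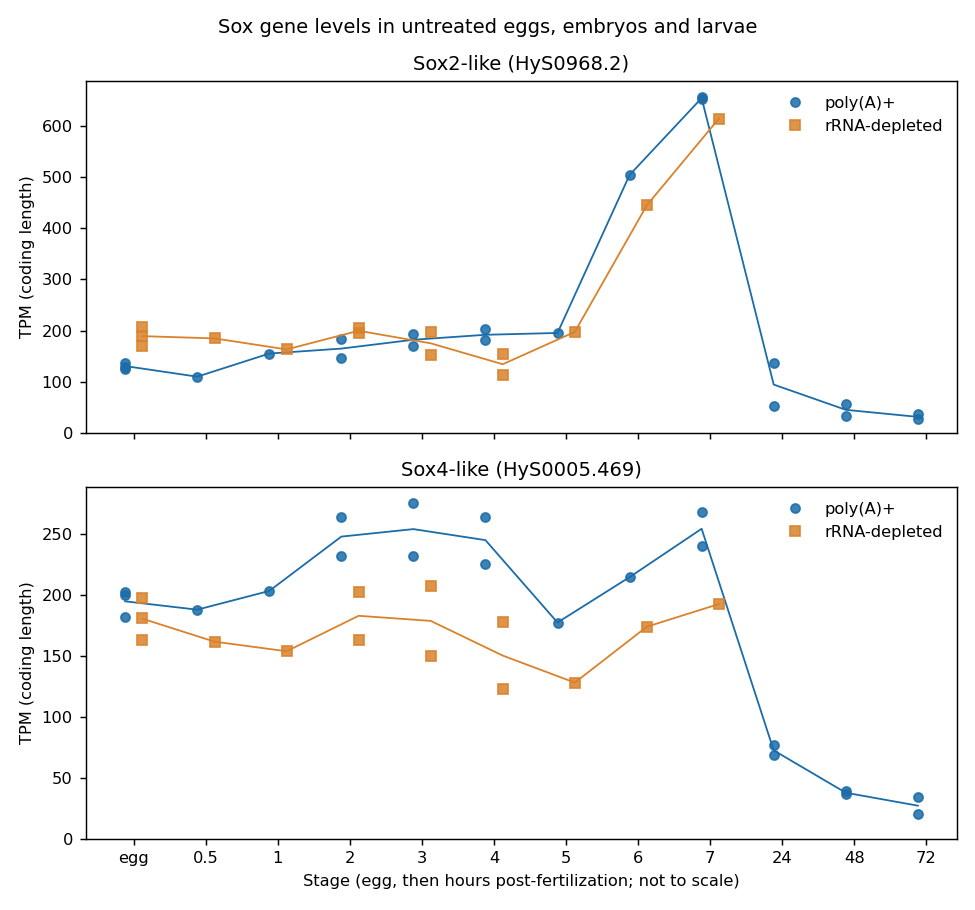
TPM of the Sox2-like gene (top) and the Sox4-like gene (bottom) in each untreated library with a clutch letter, from the egg to 72 hpf, with points for libraries and lines through the group means. The Sox2-like gene lies between 109.7 and 207 TPM up to 5 hpf and between 445 and 657 TPM at 6 and 7 hpf. The Sox4-like gene stays between 122 and 275 TPM up to 7 hpf. Both lie below the eggs at 48 and 72 hpf, while at 24 hpf the Sox2-like gene has 136 TPM in clutch E.

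At 7 hpf the Sox2-like gene averaged 655 ± 2.59 TPM (SD, n = 2), against 130.5 ± 6.02 TPM in eggs (SD, n = 3), in poly(A)+ libraries. The edgeR quasi-likelihood test, with Benjamini-Hochberg adjustment over all genes tested and a call at an adjusted p under 0.05, gave a log2 fold change of 2.32 (SE 0.26, adjusted p = 1.17e-06). In rRNA-depleted libraries the log2 fold change was 2.07 (SE 0.14, adjusted p = 1.15e-06), on 1 library at 7 hpf taken to vary as replicated groups do. Of both Sox genes, this one was called higher in each library type, where 28.6% of genes tested in poly(A)+ and 21.7% in rRNA-depleted RNA were. The median log2 fold change over all genes tested was 0.13 in poly(A)+ libraries. Within clutch D, the only clutch with both stages, HyS0968.2 was 4.77-fold higher at 7 hpf than in the egg in poly(A)+ libraries (95% counting interval 4.55 to 5.00, which covers counting error only).

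The step between 5 and 6 hpf was measured within clutch B and had no replicate. The Sox2-like gene was 2.58-fold higher at 6 than at 5 hpf in poly(A)+ libraries (95% counting interval 2.34 to 2.85) and 2.26-fold higher in rRNA-depleted libraries (2.05 to 2.48). From 6 to 7 hpf the same clutch gave folds of 1.30 and 1.38. The Sox4-like gene in these libraries gave folds of 1.21 (1.08 to 1.36) and 1.36 (1.19 to 1.55) at 6 over 5 hpf. Among these 3 stages the larger change of the Sox2-like gene thus fell between 5 and 6 hpf in both library types.

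Before that step the fold changes were smaller. In poly(A)+ libraries the log2 fold changes of HyS0968.2 against the egg were 0.35 (SE 0.26) at 2 hpf, 0.47 (SE 0.26) at 3 hpf and 0.55 (SE 0.26) at 4 hpf, with adjusted p of 0.797, 0.424 and 0.182 from edgeR, so none was called. All 6 of these libraries lay above the 3 egg libraries in TPM. At 4 hpf the call depended on the fit: with only the 2 compared groups in it, the value was 0.47 with an adjusted p of 0.0226, where 27.6% of genes were called, and with the counts of the model HyS0066.23 added, which shares reads with it, the value was 0.55 with an adjusted p of 0.0441. In rRNA-depleted libraries the values were 0.10, -0.07 and -0.15 at 2, 3 and 4 hpf, with adjusted p from edgeR of 1, 1 and 0.846. The shares of all genes called at these stages were 6.4%, 10.7% and 19.5% in poly(A)+ libraries and 0%, 0.389% and 3.56% in rRNA-depleted libraries. In rRNA-depleted libraries at 2 hpf, edgeR called 0 genes, with 166 of 15944 genes at an unadjusted p of less than 0.05, while DESeq2 called 23.

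The Sox4-like gene stayed between 122 and 275 TPM in every untreated library with a clutch letter from the egg to 7 hpf. In poly(A)+ libraries HyS0005.469 had 182, 202 and 199.8 TPM in eggs of clutches A, C and D, 188 TPM at 0.5 hpf and 203 TPM at 1 hpf. It had 231 and 264 TPM (clutches A and C) at 2 hpf, 232 and 275 TPM at 3 hpf, and 225 and 264 TPM at 4 hpf. It had 177 TPM at 5 hpf and 214 TPM at 6 hpf in clutch B, and 240.2 and 268 TPM at 7 hpf in clutches B and D. Every library from 1 hpf on lay above the eggs except that of 5 hpf, which lay just under them.

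With rRNA depletion, the Sox4-like gene had 163, 197 and 181 TPM in eggs of clutches A, C and D, 162 TPM at 0.5 hpf and 154 TPM at 1 hpf. It had 163 and 202 TPM (clutches A and C) at 2 hpf, 150.1 and 207 TPM at 3 hpf, and 122 and 178 TPM at 4 hpf. In clutch B it had 128 TPM at 5 hpf, 174 TPM at 6 hpf and 192 TPM at 7 hpf. Here the ranges at 2, 3 and 4 hpf overlapped that of the eggs. In each of the 4 stages that have both, clutch A was below clutch C in both library types, so the replicates at these stages differed in the same direction.

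No change of the Sox4-like gene at 2, 3 or 4 hpf was called in either library type. The log2 fold changes in poly(A)+ libraries were 0.35, 0.37 and 0.32 (SE 0.19 each), with adjusted p from edgeR of 0.487, 0.347 and 0.309. With only the compared groups in the fit, those at 2 and 3 hpf were called (adjusted p = 0.0388 and 0.0457), as were 12.1% and 19.3% of genes. In rRNA-depleted libraries the values were 0.04, 0.02 and 0.08, with SE of 0.13 each. At 7 hpf the log2 fold change was 0.38 in poly(A)+ libraries (95% interval -0.02 to 0.78, adjusted p = 0.106, edgeR), with adjusted p of 0.0399 under RLE size factors, 0.0141 by DESeq2 and 0.0101 with only the compared groups. These settings called 49.4%, 52.2% and 62.6% of the genes they tested. With clutch as a replicate block the poly(A)+ value was 0.47 and was not called (adjusted p = 0.363, edgeR), where 29.5% of genes were. In rRNA-depleted libraries the log2 fold change at 7 hpf was 0.46 (95% interval 0.10 to 0.82), which was called higher but rested on 1 library at 7 hpf. The call was lost with library size alone as scaling (0.40) and without the egg of clutch A (0.41) or D (0.46).

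The ratio of both genes within a library does not depend on how libraries are scaled to each other. In poly(A)+ libraries the log2 ratio of TPM, Sox2-like over Sox4-like, averaged 0.96 ± 0.48 at 5 to 7 hpf without Triptolide (SD, n = 6, untreated and DMSO) and -0.52 ± 0.22 from the egg to 4 hpf (SD, n = 11). It ranged from 0.14 to 1.45 in the later libraries and from -0.85 to -0.15 in the earlier ones, so the groups did not overlap. The difference of 1.48 had p = 0.000162 in a two-sided exact permutation test, the smallest p that these numbers of libraries allow. The rRNA-depleted ratio averaged 1.15 ± 0.39 at 5 to 7 hpf (SD, n = 5) and 0.04 ± 0.16 from the egg to 4 hpf (SD, n = 11), a difference of 1.12 with p = 0.000458, again the smallest possible in the exact permutation test. All later libraries came from clutches B, D and G and the earlier ones from A, C and D, and clutch D, present on both sides, had 1.29 at 7 hpf against -0.54 in the egg in poly(A)+ libraries. Without clutch B the difference was 1.50 in poly(A)+ libraries (n = 3 against 11, exact permutation p = 0.00549) and 1.02 in rRNA-depleted libraries (n = 2 against 11, exact permutation p = 0.0256). The test treats libraries as exchangeable, although clutches A, B, C and D each gave more than 1 of them and clutch A lay above clutch C in this ratio at all 4 shared stages in both library types, so these p-values do not account for clutch and are too small. The 2 library types were made from the same samples and are not independent. Each side of the test also pools several stages, and the test was chosen with earlier results of these data known, which the p-values do not account for.

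**Figure D2:**
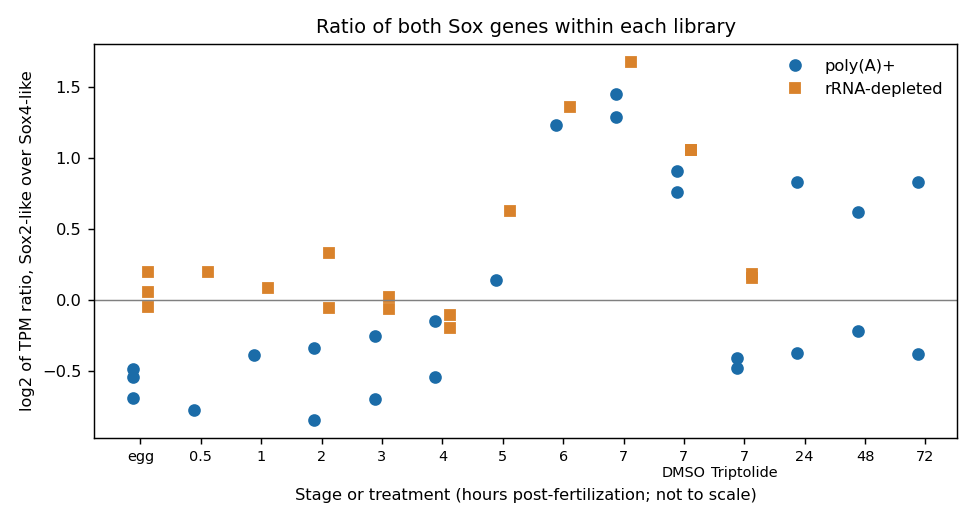
The log2 ratio of TPM, Sox2-like over Sox4-like, in each library by stage and treatment, with 0 marking equal TPM. Values lie at -0.15 or lower in poly(A)+ libraries up to 4 hpf, reach 1.45 (poly(A)+) and 1.68 (rRNA-depleted) at 7 hpf, and lie between -0.48 and 0.18 in Triptolide.

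The study applied Triptolide to ask if the clearance of maternal mRNA depends on activation of the genome, and here the 2 Sox genes are followed in the same libraries. The Sox2-like gene had 140.2 and 148 TPM in Triptolide embryos of clutches D and G, against 464 and 493 TPM in DMSO embryos, in poly(A)+ libraries. In rRNA-depleted libraries it had 226 and 224 TPM in Triptolide embryos and 439 and 499 TPM in DMSO embryos. Both clutches were lower in Triptolide, and the groups did not overlap in either library type. The log2 fold change of Triptolide against DMSO was -1.77 (SE 0.30, adjusted p = 0.000238) in poly(A)+ and -1.24 (SE 0.13, adjusted p = 6.49e-05) in rRNA-depleted RNA by edgeR. Of both Sox genes, only this one was called lower by this test, against 18.8% and 14.3% of all genes tested. Within clutch D the Triptolide level was 0.302 of the DMSO level in poly(A)+ and 0.515 in rRNA-depleted RNA, and within clutch G it was 0.301 and 0.449. The histone sequences of HyS0385 held 0.860% of TPM or less in rRNA-depleted Triptolide libraries and 14.3 and 16.1% in DMSO libraries, and with them left out of the denominator the fractions in rRNA-depleted libraries were 0.436 in clutch D and 0.388 in clutch G.

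Triptolide embryos were close to eggs in the level of this gene. The Triptolide libraries averaged 144 ± 5.79 TPM in poly(A)+ RNA (SD, n = 2), against 130.5 ± 6.02 TPM in eggs (SD, n = 3), a log2 fold change of 0.16 (95% interval -0.39 to 0.72, adjusted p = 0.797, edgeR). In rRNA-depleted libraries they averaged 225 ± 1.61 TPM, against 189 ± 19.0 TPM in eggs, a log2 fold change of 0.33 (95% interval 0.07 to 0.59, adjusted p = 0.0644, edgeR), which the filter of edgeR's filterByExpr turned into a call (0.36, adjusted p = 0.0368, with 28.4% of genes called). Both Triptolide libraries were above all 3 eggs of their library type, and within clutch D the Triptolide level was 1.02 times that of the egg in poly(A)+ and 1.09 times in rRNA-depleted RNA. Of all genes tested, 29.4% in poly(A)+ and 23.5% in rRNA-depleted RNA were called between Triptolide and egg. An absence of change is not shown by these tests, and the intervals give the sizes they allow.

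DMSO embryos lay above eggs in the level of the Sox2-like gene, but below untreated embryos at 7 hpf. The log2 fold change of DMSO against the egg was 1.93 in poly(A)+ (adjusted p = 8.06e-06) and 1.57 in rRNA-depleted libraries (adjusted p = 1.04e-06) by edgeR, in a comparison chosen after the values were seen. Called higher in it were 31.3% and 26% of all genes tested. DMSO embryos had 464 and 493 TPM, against 657 and 653 TPM in untreated embryos at 7 hpf, in poly(A)+ libraries, and these ranges did not overlap. The log2 fold change of DMSO against untreated was -0.38 (95% interval -0.99 to 0.23, adjusted p = 0.938) in poly(A)+ and -0.50 (95% interval -0.84 to -0.16, adjusted p = 0.315) in rRNA-depleted libraries by edgeR. Of all genes tested, 0.0158% and 0.00627% were called. For the rRNA-depleted value, DESeq2 gave an adjusted p of 0.0497 and a fit of only the compared groups one of 0.0168, with 1.95% and 4.92% of genes called. In rRNA-depleted libraries the DMSO embryos came from clutches D and G and the untreated ones from clutch B alone. Treatment and clutch cannot be told apart in that comparison. Within clutch D, the one clutch with both, the DMSO level was 0.711 of the untreated level in poly(A)+ libraries (95% counting interval 0.688 to 0.734).

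The Sox4-like gene had smaller fold changes between treatments, and the difference between both genes in this was not tested. It had 196 and 197 TPM in Triptolide embryos of clutches D and G, against 274 and 263 TPM in DMSO embryos, in poly(A)+ libraries. In rRNA-depleted libraries it had 199.7 and 202 TPM in Triptolide embryos and 212 and 240.4 TPM in DMSO embryos. Each Triptolide library was below both DMSO libraries of its type. The log2 fold changes were -0.49 (SE 0.21, adjusted p = 0.0988) and -0.35 (SE 0.14, adjusted p = 0.0847) by edgeR, and neither was called. These values were near the threshold: in poly(A)+ libraries DESeq2 (adjusted p = 0.0331) and a fit of only the compared groups (0.00123) called it, along with 30.6% and 50.3% of genes. In rRNA-depleted libraries the paired fit, with clutch as a replicate block, called it (-0.35, adjusted p = 0.00918) together with 44% of genes. So did 6 other alternatives, with adjusted p from 0.000242 to 0.0477, which called 24 to 47.1% of genes. Against the egg, DMSO embryos were called higher, with log2 fold changes of 0.53 in poly(A)+ (adjusted p = 0.0252, edgeR) and 0.58 in rRNA-depleted libraries (adjusted p = 0.00340, edgeR). The poly(A)+ call was lost with clutch as a replicate block (0.53, adjusted p = 0.273), with identical gene models summed, without clutch B, and without any 1 of the 5 libraries compared. Triptolide against the egg gave 0.04 (95% interval -0.36 to 0.43) in poly(A)+ and 0.23 (95% interval -0.05 to 0.52) in rRNA-depleted RNA.

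**Figure D3:**
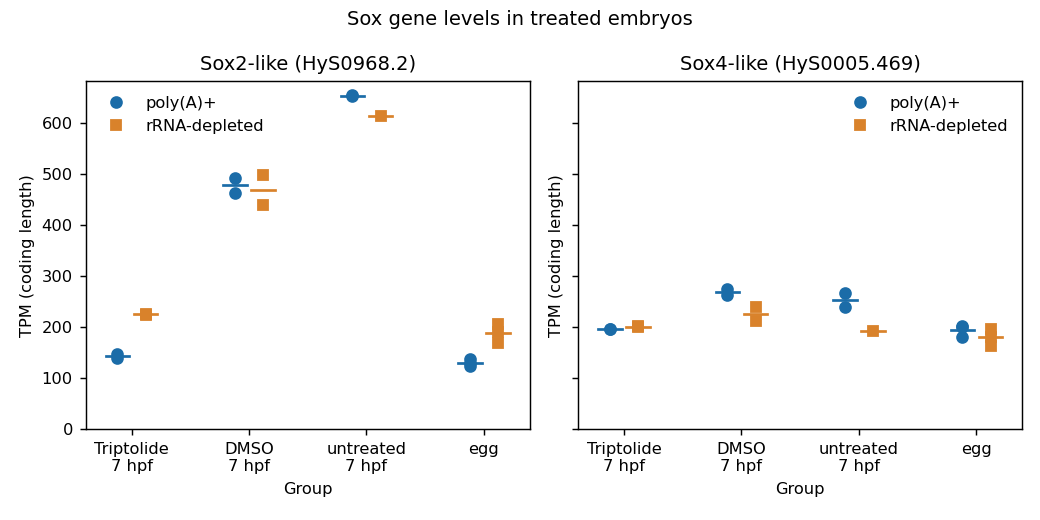
TPM of the Sox2-like gene (left) and the Sox4-like gene (right) in Triptolide, DMSO and untreated embryos at 7 hpf and in eggs, with points for libraries and short lines for group means. Triptolide libraries of the Sox2-like gene lie at 140.2 to 226 TPM, below all DMSO and untreated libraries (439 to 657 TPM), while those of the Sox4-like gene lie at 196 to 202 TPM.

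**Figure D4:**
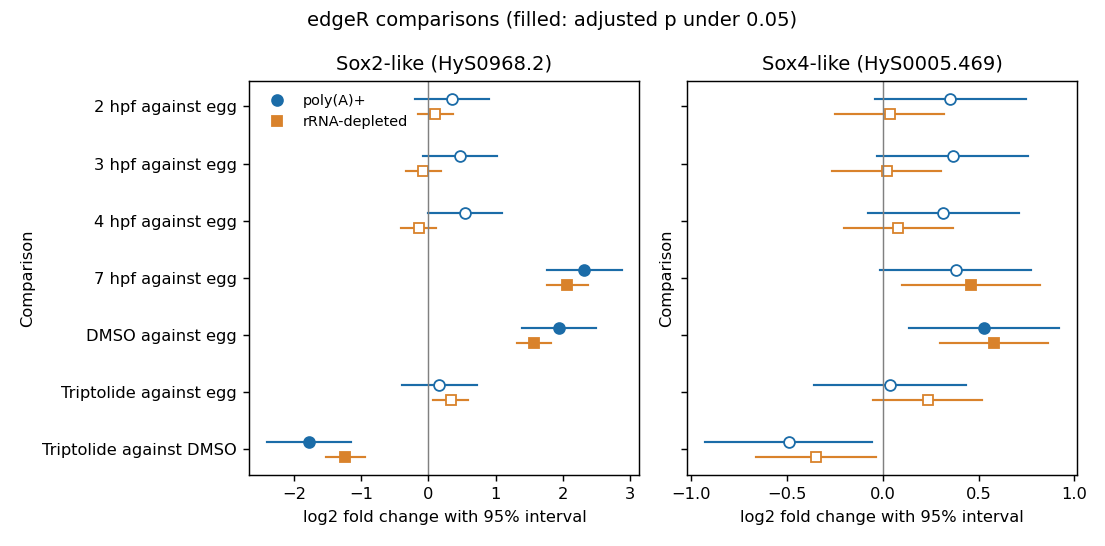
Log2 fold changes from edgeR with 95% intervals for the Sox2-like gene (left) and the Sox4-like gene (right) in both library types, filled where the adjusted p is under 0.05. The horizontal scales differ, and the Sox2-like gene reaches 2.32 at 7 hpf and -1.77 in Triptolide against DMSO, while the Sox4-like gene stays between -0.49 and 0.58.

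The genes differed in how their level compared between library types. The Sox2-like gene had fewer TPM in the poly(A)+ than in the rRNA-depleted library of each egg sample, with log2 ratios of -0.39, -0.60 and -0.60 in clutches A, C and D, while the Sox4-like gene had 0.16, 0.04 and 0.14. In the fit over 43 libraries the log2 differences between the library types in the egg were -0.29 for HyS0968.2 (adjusted p = 0.386, edgeR) and 0.35 for HyS0005.469 (adjusted p = 0.0993, edgeR), and neither was called, where 27.4% of genes were. That fit uses TMM scaling, and its values lie above the mean log2 ratios of TPM for both genes. In the paired fit, with the shared sample of each of the 18 library pairs as a replicate block, both were called, HyS0968.2 lower in poly(A)+ RNA (-0.29, adjusted p = 0.0457) and HyS0005.469 higher (0.35, adjusted p = 0.00141), in a fit that called 43.9% of the genes it tested. The log2 ratio of both genes within a library, which needs no scaling, was -0.49, -0.69 and -0.54 in poly(A)+ eggs and 0.06, -0.05 and 0.20 in rRNA-depleted eggs of clutches A, C and D, lower in poly(A)+ RNA in all 3 pairs.

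The log2 ratio of poly(A)+ to rRNA-depleted TPM of the Sox2-like gene was negative in every pair of libraries up to 2 hpf and of mixed sign from 3 hpf on. It was -0.16 and -0.41 at 2 hpf, 0.35 and -0.22 at 3 hpf, and 0.84 and 0.23 at 4 hpf in clutches A and C. The values were -0.02, 0.18 and 0.10 at 5, 6 and 7 hpf in clutch B, and in clutches D and G it was -0.69 and -0.59 in Triptolide, against 0.08 and -0.02 in DMSO. The sign at the later stages depended on the TPM denominator. With the histone sequences left out of it, the values at 4 hpf were 0.52 and 0.05, those at 5, 6 and 7 hpf were -0.35, -0.12 and -0.21, and clutches D and G had -0.70 and -0.61 in Triptolide, against -0.17 and -0.24 in DMSO. In the test of the difference itself, the change from the egg at 4 hpf was larger in poly(A)+ than in rRNA-depleted libraries by 0.74 on the log2 scale (95% interval 0.04 to 1.43), which was not called (adjusted p = 0.243, edgeR, where 9.29% of genes were). The paired fit, with sample as a replicate block, called it (0.66, adjusted p = 0.0155), and it also called the difference at 3 hpf for HyS0968.2 (0.56, adjusted p = 0.0449) and for HyS0005.469 (0.37, adjusted p = 0.0452). The paired fit called 20.8% of genes at 4 hpf and 16.5% at 3 hpf, where the unpaired fit called 6.94% and neither of these. The differences at 2 and 7 hpf (0.29 and 0.32 for HyS0968.2) and in the effect of Triptolide (-0.38) were not called in the unpaired or the paired fit, which called 4.07%, 4.47% and 3.51% of genes (unpaired) and 11.8%, 9.53% and 8.43% (paired) in these 3 tests.

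Larval poly(A)+ levels are given here without a test. Larvae had the lowest group means of the Sox4-like gene, and of the Sox2-like gene as its reads were divided between models, an order that turned for 24 and 0.5 hpf with the shared reads added. The Sox4-like gene had 76.5 and 68.4 TPM at 24 hpf, 38.8 and 36.7 TPM at 48 hpf, and 20.1 and 34.2 TPM at 72 hpf in clutches E and F. The egg mean was 2.69, 5.15 and 7.17 times the mean at these stages. The Sox2-like gene had 136 and 52.7 TPM at 24 hpf, 33.3 and 56.3 TPM at 48 hpf, and 35.8 and 26.2 TPM at 72 hpf in clutches E and F, and the egg mean was 1.38, 2.91 and 4.21 times those means. The clutch E library at 24 hpf lay within the range of the eggs, and those at 48 and 72 hpf all lay below the eggs. By these poly(A)+ means the Sox2-like gene stayed under 5-fold, and the Sox4-like gene passed it. The study asks for more than 5-fold over some other stage, without stating the library type, and took its minimum egg level from rRNA-depleted RNA. There the egg mean of the Sox2-like gene was higher, at 189 TPM. The poly(A)+ means therefore do not show if either gene meets the study's criterion.

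In larval libraries the Sox2-like gene shared reads with another model. The counting tool divides a read that matches several transcripts between them, and the counts of HyS0968.2 were whole in all but 4 of the 45 libraries, whereas those of HyS0005.469 were whole in every one. In those 4 libraries the counts of HyS0968.2 and HyS0066.23, a model of 873 bases with no name in the sources used here, added up to whole numbers, and it was the only model of which this was true. In clutch F at 24 hpf, 701 counts were given to HyS0968.2 and 567 to HyS0066.23, which was 44.7% of the sum. In clutch E the share of HyS0066.23 was 0.0824% at 24 hpf, 9.58% at 48 hpf and 8.91% at 72 hpf. Outside these 4 libraries HyS0066.23 had next to no counts. With both models added, the level was 136 and 95.3 TPM at 24 hpf, 36.8 and 56.3 TPM at 48 hpf, and 39.3 and 26.2 TPM at 72 hpf in clutches E and F. The mean at 24 hpf was then 115.6 TPM, above the 109.7 TPM at 0.5 hpf, and the egg mean was 1.13 times it. Levels in eggs and embryos were not touched by this division, but the fit shares its estimate of spread with the larval libraries, and with the sum in place of HyS0968.2 the adjusted p at 7 hpf against the egg was 2.31e-08 in poly(A)+ libraries.

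**Figure D5:**
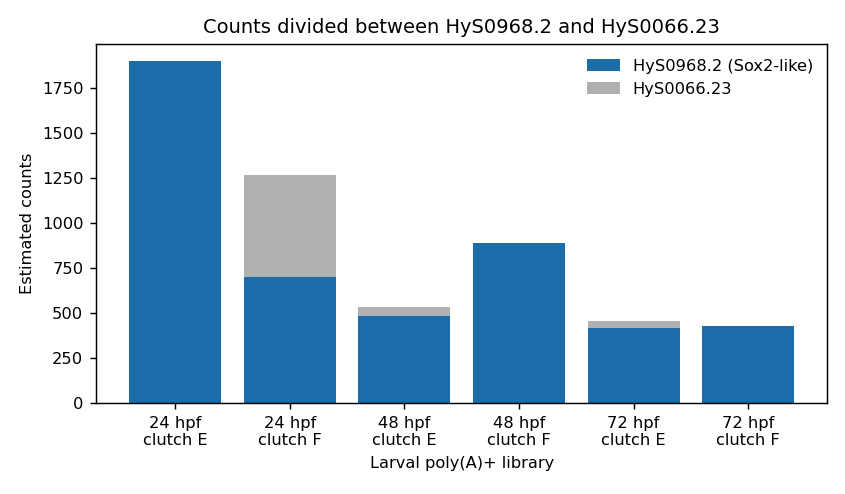
Estimated counts of HyS0968.2 (Sox2-like) and HyS0066.23 stacked for each larval poly(A)+ library. The division is 701 and 567 counts in clutch F at 24 hpf, and HyS0066.23 takes under 10% of the sum in the other 5 libraries.

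Among group means in poly(A)+ libraries, the Sox2-like gene was highest at 7 hpf (655 TPM), followed by 6 hpf (504 TPM) and DMSO embryos (478 TPM), and these 3 did not overlap each other or any other group. From 5 hpf (195 TPM) down through 4, 3, 2 and 1 hpf (155 TPM), each group lay within or overlapped the range of its neighbour. Triptolide embryos (144 TPM) and eggs (130.5 TPM) came next, and 0.5 hpf (109.7 TPM) and the larvae last, with 24 hpf above 0.5 hpf once the shared reads were added. Ranked by mean TPM among the 22022 models, HyS0968.2 stood at 193 at 7 hpf and at 1482 in the egg in poly(A)+ libraries, and at 220 and 689 in rRNA-depleted libraries. Its highest single poly(A)+ library was 25.1 times its lowest, and 5.42 times in rRNA-depleted libraries, which hold no larvae.

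For the Sox4-like gene the poly(A)+ means of DMSO embryos (269 TPM) and of untreated embryos at 7, 3, 2 and 4 hpf (254, 254, 248 and 245 TPM) overlapped from neighbour to neighbour. Below them came 6 hpf (214 TPM), 1 hpf (203 TPM), Triptolide embryos (196 TPM), eggs (195 TPM), 0.5 hpf (188 TPM) and 5 hpf (177 TPM), of which Triptolide embryos and 0.5 hpf fell within the range of the eggs, and then the larvae in order of age. Its rank was 656 at 7 hpf and 727 in the egg in poly(A)+ libraries, and 752 and 747 in rRNA-depleted libraries. The ratio of its highest to its lowest library was 13.7 in poly(A)+ and 1.97 in rRNA-depleted RNA.

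A list of 6 other transcription factor genes, chosen with earlier results known, sets the pattern of the Sox genes beside those of other factors. The list holds factors named in the study or in an earlier description of these data. At 7 hpf against the egg in poly(A)+ libraries 2 of the 6 were called higher, the forkhead-domain gene HyS0062.47 and the Sp5-like zinc finger gene HyS0057.112, and 1 was called lower, Etv3 (HyS0030.200), an ETS-domain factor. Of all genes tested, 19.8% in poly(A)+ and 21% in rRNA-depleted RNA were called lower. Called higher were 28.6% in poly(A)+ and 21.7% in rRNA-depleted RNA. The study names HyS0062.47 and HyS0057.112 as activated in these same embryos, so their calls higher follow from how the list was chosen. Etv3 was taken from an earlier description of these data, so its call lower is no independent finding either. The list's median log2 fold change was 0.01, against 0.13 over all genes tested. The same 3 genes were called in the same directions in rRNA-depleted libraries. The POU-domain gene Polynem (HyS0098.14), Rfx7 (HyS0003.78) and E2f2 (HyS0045.22) were not called. The rise of HyS0968.2 by 2.32 was smaller than those of HyS0062.47 (10.24) and HyS0057.112 (6.96), which started from 0.390 and 1.25 TPM in the egg, whereas HyS0968.2 started from 130.5 TPM. In Triptolide against DMSO 2 of the 6 were called lower in poly(A)+ libraries, again HyS0062.47 and HyS0057.112, where 18.8% of all genes were. In rRNA-depleted libraries 2 were called lower and 1 higher, where 14.3% of all genes were called lower and 17.8% higher. HyS0062.47 and HyS0057.112 were listed as activated in the embryo, so their calls lower also follow from the choice. Polynem had 29.8 ± 2.80 TPM at 7 hpf (SD, n = 2) and 33.7 ± 13.2 TPM in the egg (SD, n = 3) in poly(A)+ libraries, below both Sox genes at both stages.

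The genes most like each Sox gene were found by the Pearson correlation of log2(TPM + 1) over 25 group means, centred by library type, among 9796 genes with at least 5 TPM in eggs of both types. These means share libraries, depth and the larval decline, and r is given as a description. For the Sox2-like gene they were HyS0054.58 (r = 0.982) and HyS0073.81 (r = 0.977). HyS0073.81 had 223 ± 7.96 TPM in Triptolide, 733 ± 2.34 TPM in DMSO, 774 ± 63.0 TPM at 7 hpf (SD, n = 2 each) and 254 ± 6.47 TPM in the egg (SD, n = 3) in poly(A)+ libraries. For the Sox4-like gene they were HyS0034.46 (r = 0.986) and HyS0009.219 (r = 0.985). HyS0034.46 had 236 ± 26.9 TPM in Triptolide, 313 ± 10.5 TPM in DMSO, 355 ± 4.84 TPM at 7 hpf (SD, n = 2 each) and 215 ± 13.1 TPM in the egg (SD, n = 3) in poly(A)+ libraries. Rfx7 and E2f2 stood at ranks 15 and 11 on the list of the Sox4-like gene (r = 0.981 and 0.982). Between the Sox genes themselves r was 0.767, which placed the Sox4-like gene at rank 619 of 9796 on the list of the Sox2-like gene and the Sox2-like gene at rank 3666 on that of the Sox4-like gene.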

How the data were processed

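Gene expression was measured in 45 libraries of Hydractinia symbiolongicarpus eggs, embryos and larvae, of which 43 enter the comparisons and 2 pilot libraries do not. The authors deposited expected counts, also called estimated counts, per gene model, without normalization. They trimmed reads with Trim Galore 0.6.6 and cutadapt 1.15 and pseudo-aligned them to protein-coding transcripts with kallisto 0.46.1. The coding length of each model stands in the same table, and every length is a multiple of 3. All 45 count columns were matched to a sample by its label, and 0 columns were left without one. A read that matches several models is divided between them, so counts need not be whole. Values within 0.001 of a whole number were taken as whole, and a looser tolerance was used for the sums of HyS0968.2 with other models.

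Counts were rounded for the quasi-likelihood F test of edgeR 4.0.16 (R 4.3.3), two-sided, with TMM scaling and p-values adjusted by Benjamini-Hochberg over all genes tested, at a threshold of 0.05. A gene needed at least 10 counts in total in the libraries entered. Poly(A)+ libraries (25 libraries, 14 groups, 18928 genes, 11 residual degrees of freedom) and rRNA-depleted libraries (18, 11, 15944 and 7) had separate fits. Differences between library types were tested over all 43 libraries (25 groups, 19461 genes), and the paired fit used the 36 libraries of 18 pairs. A lone library at a stage was taken to vary as replicated groups do. Dispersion came from the common and trended estimates of edgeR. The alternatives were RLE size factors, library size alone, histone sequences of HyS0385 left out, DESeq2 1.42.0, filterByExpr, no filter, identical gene models summed, only the compared groups, a replicate block, no clutch B, and each library left out in turn. Chosen after the data were seen were the comparisons of DMSO with the egg and with untreated embryos, the sum with HyS0066.23 and dispersion from estimateDisp. The test was tried on simulated data with known changes. TPM, ratios within a library and exact permutation tests were computed in python 3.11.15 (numpy 2.4.6, pandas 2.3.3, scipy 1.17.1), and figures were drawn with matplotlib 3.10.9. Intervals on the level in a single library are exact at 95%. Counting intervals on folds use a normal approximation on the log scale, and both kinds cover counting error only.

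Clutch letters in the labels pair libraries across stages and treatments. The deviations of clutches A and C correlated over genes from stage to stage, at r between 0.478 and 0.798 for poly(A)+ and between 0.607 and 0.827 for rRNA-depleted RNA, while those of D and G, compared between DMSO and Triptolide, gave r = -0.03 and -0.02. Of 20 replicate pairs, 0 held identical values. Genes named are both members, 6 other transcription factors named in the study or in an earlier description of these data, and the 2 genes most alike each member by correlation, with 1 gene per set of identical counts. HyS0066.23 was chosen after its values were seen. Members, lists and tests were chosen with earlier results of these data known.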

Additional observations from a re-analysis of the deposited data

Results flagged for a closer look

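The pilot libraries, made from embryos at 1 hpf, enter no comparison, and both Sox genes had counts in them. The Sox2-like gene had 121 TPM in the pilot poly(A)+ library and 233 TPM in the pilot library without selection, and the Sox4-like gene had 212 TPM with poly(A)+ selection and 194 TPM without. The unselected pilot library held 87 counts of the Sox2-like gene (95% interval 187 to 287 TPM) and 71 of the Sox4-like gene (152 to 245 TPM). The gene model HyS0066.23, which shares reads with HyS0968.2 and enters no comparison of its own, had 567 counts in clutch F at 24 hpf, 51.2 counts in clutch E at 48 hpf and 40.7 counts in clutch E at 72 hpf. It stood above the floor of 3 counts in no other library.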

How the results depend on the processing

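Over 46 results on both genes, 783 values were recomputed under other settings. Of these, 716 kept direction and call, 33 gained a call, 11 lost one and 23 changed sign, and 23 results kept both throughout. For the Sox2-like gene the calls at 7 hpf against the egg and in Triptolide against DMSO held under every alternative run. At 7 hpf the values were 2.26 to 2.40 in poly(A)+ and 2.01 to 2.25 in rRNA-depleted RNA. In Triptolide against DMSO they were -1.78 to -1.72 and -1.44 to -1.23. The calls also held with each library left out, at 2.19 to 2.31 and 2.01 to 2.13 at 7 hpf. In Triptolide against DMSO those fits gave -1.85 to -1.69 and -1.32 to -1.16. The untreated rRNA-depleted library at 7 hpf is the only one, so it could not be left out, and neither the clutch block nor the fit without clutch B gives a value there.

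With only the compared groups in the fit, calls were gained by the Sox4-like gene in poly(A)+ libraries at 2 hpf (0.36), 3 hpf (0.35) and 7 hpf (0.38), in Triptolide against DMSO (-0.50 in poly(A)+ and -0.51 in rRNA-depleted RNA) and between library types in the egg (0.31). The Sox2-like gene gained them at 4 hpf in poly(A)+ libraries (0.47), in DMSO against untreated in rRNA-depleted libraries (-0.47), between library types in the egg (-0.33), and in the difference between library types at 4 hpf (0.70) and in Triptolide against DMSO (-0.41). The sum with HyS0066.23 gave 0.55 at 4 hpf. DESeq2 called the Sox4-like gene at 7 hpf in poly(A)+ libraries (0.46, as did RLE size factors with 0.46), in Triptolide against DMSO (-0.48 in poly(A)+ and -0.56 in rRNA-depleted RNA, where RLE also gave a call at -0.56) and between library types in the egg (0.36), and called the Sox2-like gene in DMSO against untreated rRNA-depleted libraries (-0.54).

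For the Sox4-like gene in Triptolide against DMSO in rRNA-depleted libraries, calls also came from filterByExpr (-0.42), identical models summed (-0.50) and the fit without clutch B (-0.48), and between library types in the egg from the histone sequences left out (0.39), filterByExpr (0.40), identical models summed (0.39) and no clutch B (0.40). filterByExpr called the Sox2-like gene in Triptolide against the egg in rRNA-depleted libraries (0.36). Lost calls were those of the Sox4-like gene in DMSO against the egg in poly(A)+ libraries, with identical models summed (0.46) and without clutch B (0.45), and at 7 hpf in rRNA-depleted libraries with library size alone (0.40).

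With clutch as a replicate block the Sox4-like gene was called in Triptolide against DMSO in rRNA-depleted libraries (-0.35) and lost its call in DMSO against the egg in poly(A)+ libraries (0.53). With the sample as a replicate block, library types in the egg differed for the Sox2-like gene (-0.29) and the Sox4-like gene (0.35), as did the changes at 3 hpf (0.56 and 0.37) and, for the Sox2-like gene, at 4 hpf (0.66). The block changed no other call.

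Changes of sign concerned values near 0 that were never called. For the Sox4-like gene they were Triptolide against the egg in poly(A)+ libraries (-0.047 with filterByExpr, -0.040 with identical models summed, -0.051 without clutch B), 4 hpf in rRNA-depleted libraries (-0.0043 with library size alone), the difference between library types at 7 hpf (0.0098 with library size alone) and that in Triptolide against DMSO (-0.079 with library size alone, -0.017 with only the compared groups, -0.018 with the sample as a replicate block). With 1 library left out at a time, the Sox4-like gene ranged from -0.056 to 0.044 in Triptolide against the egg and from 0.44 to 0.53 in DMSO against the egg in poly(A)+ libraries, and with rRNA depletion from -0.060 to 0.13 at 2 hpf, -0.18 to 0.20 at 3 hpf, -0.062 to 0.22 at 4 hpf and 0.41 to 0.51 at 7 hpf. The difference between library types ranged from -0.14 to 0.12 at 7 hpf and from -0.069 to 0.085 in Triptolide against DMSO, and the Sox2-like gene in rRNA-depleted libraries at 3 hpf from -0.23 to 0.068. The causes were not tested. In the 43 libraries the lowest count was 416 for the Sox2-like gene and 229 for the Sox4-like gene, which limits precision most where a stage has 1 library.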
